A study of Arabidopsis thaliana with 6 samples.

Results

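The clade III SWEET genes of Arabidopsis thaliana were followed in phloem exudate and in phloem tissue. The members were SWEET9, SWEET10, SWEET11, SWEET13, SWEET14 and SWEET15, chosen by gene identity, and a member was measured through a probe set that the probe table pairs with it alone. All 6 had 1 such probe set, where the whole table had such a probe set for 13286 genes. SWEET15 stood in that table under its older name SAG29. SWEET12, a further clade III gene, had no probe set assigned to it alone and was not analysed here. Expression was measured on 6 Affymetrix ATH1 arrays, 3 for phloem exudate and 3 for tissue isolated by LMPC, laser microdissection with pressure catapulting. LMPC cuts a small area out of a tissue section with a laser and propels it into a tube, and exudate is the fluid that seeps from cut sieve tubes into a solution of the calcium chelator EDTA. The labels give no genotype, mutation or treatment that would set the groups apart, and all plants grew with 8 h of light at 22 °C and 16 h of darkness at 16 °C until flowering. Exudate RNA was amplified in 2 rounds with a linear kit, and LMPC RNA with another kit that used 10 PCR cycles before in vitro transcription. Kit and sample type therefore cannot be told apart. The labels do not say whether the 3 arrays of a group came from separate plants, so a p-value here speaks only of the spread among these samples, which may be technical.

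SWEET proteins are membrane carriers that let sugars pass down their concentration gradient, and clade III members move mainly sucrose. In leaves, SWEET11 and SWEET12 release sucrose from phloem parenchyma cells into the cell wall space, from which proton-coupled SUC transporters load it into companion cells and sieve elements. Other members are known from nectaries, flowers, seeds and senescing leaves. SWEET13 and SWEET14 also carry the hormone gibberellin.

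SWEET13 was the member that differed most between exudate and LMPC phloem. Its signal was 11.8, 15.5 and 2.70 on exudate arrays 1, 2 and 3, against 203, 182 and 97.8 on LMPC arrays 1, 2 and 3. All exudate arrays lay far below all LMPC arrays, and the lowest LMPC signal was 6.31 times the highest exudate signal. The means were 10.0 ± 6.59 in exudate and 161 ± 55.7 in LMPC phloem (SD, n = 3 each). Signals are linear MAS5 values, 1 per probe set, and the tests below were run on log2(signal + 16), a scale that understates the change of dim probe sets. On that scale SWEET13 (AT5G50800) was lower in exudate by a log2 difference of -2.75, with a 95% interval of -3.46 to -2.03 (limma, adjusted p = 8.53e-06). Of the 15320 probe sets tested, 155 had a difference as low or lower, which is 1.01%.

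SWEET11 was lower in exudate as well, by a smaller amount. Its signal was 8.90, 25.8 and 15.5 on exudate arrays 1, 2 and 3, against 75.4, 36.9 and 61.1 on the LMPC arrays. The groups did not overlap, but the lowest LMPC signal was only 1.43 times the highest exudate signal. The means were 16.7 ± 8.52 in exudate and 57.8 ± 19.5 in LMPC phloem (SD, n = 3 each). The log2 difference of SWEET11 (AT3G48740) was -1.17, with an interval of -1.86 to -0.48 (limma, adjusted p = 0.0140), and 9.40% of the probe sets tested had a difference as low or lower. This call was lost after median centring of the arrays (-0.88, limma adjusted p = 0.0508), after scaling on the spike-in controls of the hybridization (-0.27, 0.638) and when 1 was the pseudocount (-1.79, 0.0564). Leaving out exudate array 1 (-0.99, limma adjusted p = 0.0796) or LMPC array 1 (-0.997, 0.0683) ended it too.

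**Figure D1:**
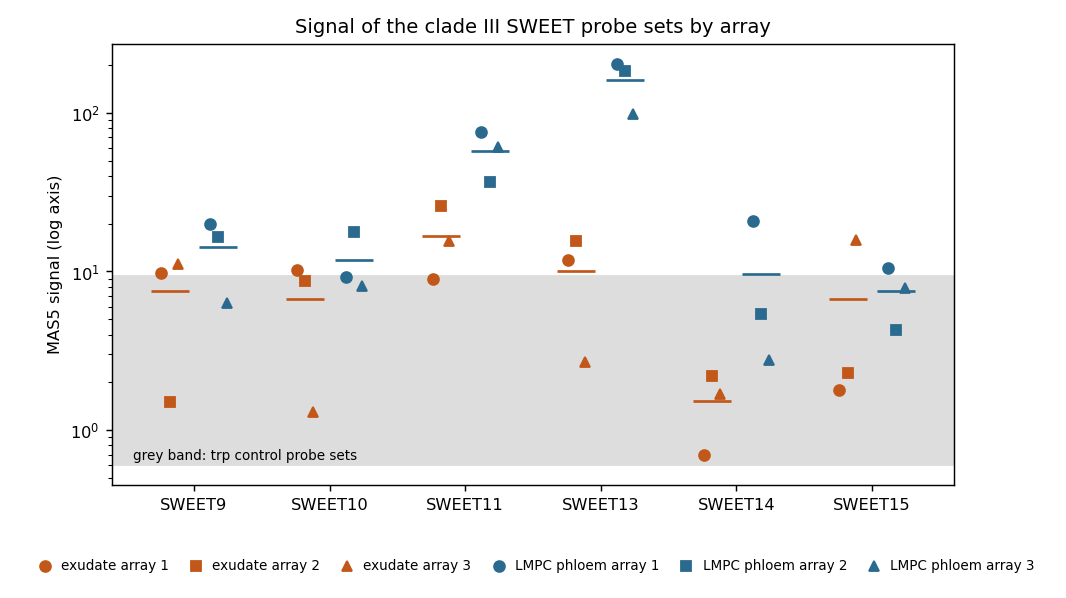
MAS5 signal (log axis) of each clade III SWEET probe set on the 3 exudate arrays (orange, left) and the 3 LMPC phloem arrays (blue, right); horizontal lines are group means and the grey band spans the trp control probe sets on all 6 arrays. SWEET13 and SWEET11 lie lower on all exudate arrays than on all LMPC arrays, with means of 10.0 against 161 and 16.7 against 57.8, and the other members are mostly in or near the grey band. On exudate array 3 SWEET13 (2.70) lies in the band too.

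SWEET14, which like SWEET13 carries gibberellin as well as sucrose, was dim in both groups. Its signal was 0.700, 2.20 and 1.70 in exudate, against 20.7, 5.40 and 2.79 in LMPC phloem. The exudate arrays were all lower, and LMPC array 1 stood above the other LMPC arrays. With 0 exudate arrays and 1 LMPC array above the 40th percentile of signals, SWEET14 (AT4G25010) did not pass the filter, which asked for 3 of the 6 arrays. Fitted without the filter, its difference was -0.48 (limma, adjusted p = 0.291).

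SWEET9, which secretes sucrose in floral nectaries, had signals of 9.80, 1.5 and 11.2 in exudate, against 20.0, 16.5 and 6.37 in LMPC phloem. SWEET10, which acts downstream of the flowering signal FT, had 10.2, 8.70 and 1.3 in exudate, against 9.25, 17.9 and 8.11 in LMPC phloem. The groups of both genes overlapped. The log2 difference was -0.36 for SWEET9 (AT2G39060), with an interval of -1.04 to 0.31 (limma, adjusted p = 0.431), and -0.29 for SWEET10 (AT5G50790), with an interval of -0.95 to 0.37 (0.526). Under spike-in scaling both turned to positive values, 0.10 for SWEET9 and 0.23 for SWEET10. SWEET10 and SWEET13 are direct neighbours on chromosome 5 of assembly TAIR10.1, with 0 annotated genes between them. The pair had unlike differences, since SWEET10 was close to the median of all probe sets and SWEET13 far below it. Both were dim in exudate, and they stood apart on the LMPC arrays. SWEET10 was mostly under the pseudocount of 16, which compresses its difference.

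SWEET15, also known as SAG29, is a member of senescing leaves and of seeds, where it feeds the embryo together with SWEET11 and SWEET12. Its signal was 1.80, 2.30 and 15.9 in exudate, against 10.5, 4.29 and 7.91 in LMPC phloem. Exudate array 3 was the highest of all 6 arrays and exudate array 1 the lowest, so the groups overlapped fully. SWEET15 (AT5G13170) was above the 40th percentile on 1 exudate array and 0 LMPC arrays and did not pass the filter, and without it the difference was -0.10 (limma, adjusted p = 0.842).

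Of the 6 members, 4 passed the filter, 2 were called lower in exudate and 0 higher, where 16.6% of all probe sets tested were called lower and 8.51% higher. SWEET11 was above the 40th percentile on all 6 arrays and SWEET13 on 2 exudate arrays and 3 LMPC arrays. The mean signal was lower in exudate for all 6 members, as it was for 66.7% of the 22746 probe sets that are no controls. For 3 of the 6, SWEET11, SWEET13 and SWEET14, all exudate arrays lay lower than all LMPC arrays, against 26.5% of those 22746. The median log2 difference of the 4 tested members was -0.77, and that of all tested probe sets was -0.27. Relative to this overall shift SWEET13 stood at -2.48, SWEET11 at -0.90, SWEET9 at -0.10 and SWEET10 at -0.03.

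**Figure D2:**
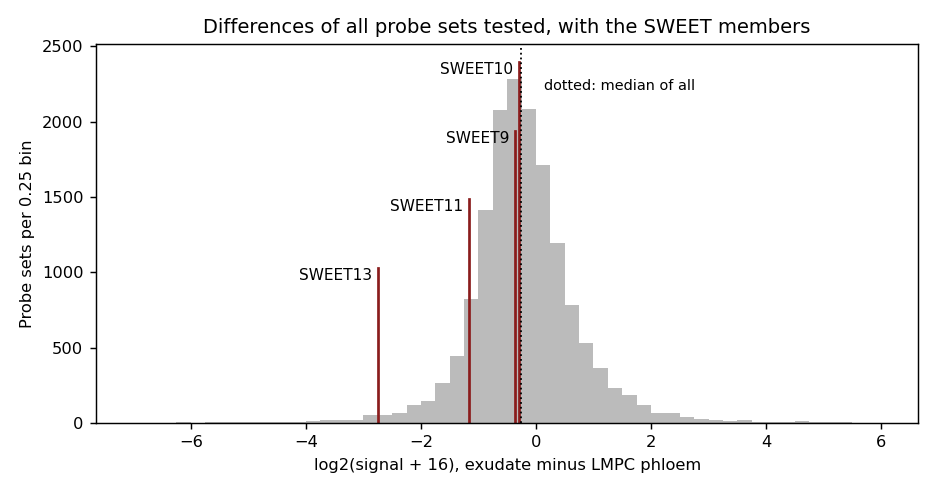
Number of probe sets per bin of the log2 difference, exudate minus LMPC phloem on log2(signal + 16), for the 15320 probe sets tested; red lines mark the 4 tested SWEET members and the dotted line the median of -0.27. SWEET13 at -2.75 lies in the low tail, SWEET11 at -1.17 on the lower flank, and SWEET9 and SWEET10 next to the median.

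How bright the members were beside the rest of each array matters for reading these values. The array medians were 8.80 to 10.3 in exudate and 13.4 to 15.8 in LMPC phloem. The 3 probe sets for trp, a bacterial control transcript, read 0.600 to 9.40 in exudate and 0.996 to 7.35 in LMPC phloem, and detection calls were not used here. SWEET11 was brighter than all 3 trp probe sets on each of the 6 arrays. SWEET13 was so on 5, and its 2.70 on exudate array 3 did not exceed the brightest trp probe set of that array (9.40). SWEET14 was no brighter than the brightest trp probe set on 5 of the 6 arrays, SWEET15 on 2, and SWEET9 and SWEET10 on 1 each. No call was made for these 4 members.

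Ranks within an array do not depend on its scaling factor. SWEET13 stood at the percentiles 58.4, 65.5 and 26.9 of exudate arrays 1, 2 and 3, against 96.8, 96.9 and 95.2 of the LMPC arrays. It was thus among the brightest probe sets of the tissue on all 3 arrays and near the middle of the exudate arrays or under it. The mean difference was -46.0 percentile points (exact two-sided permutation test, p = 0.1, the smallest that 3 against 3 arrays allow, adjusted over the 6 members p = 0.6). SWEET11 stood at 50.2, 79.0 and 60.2 in exudate, against 90.6, 78.5 and 91.1 in LMPC phloem. By rank its groups overlapped, because exudate array 2 was above LMPC array 2, and the difference of -23.6 points had p = 0.2 (exact permutation test). The remaining 4 members differed by -16.4 to 2.64 points, with exact p-values of 0.4 to 0.9. SWEET15 was the member with a higher mean percentile in exudate, at 36.3 against 33.7 in LMPC phloem.

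**Figure D3:**
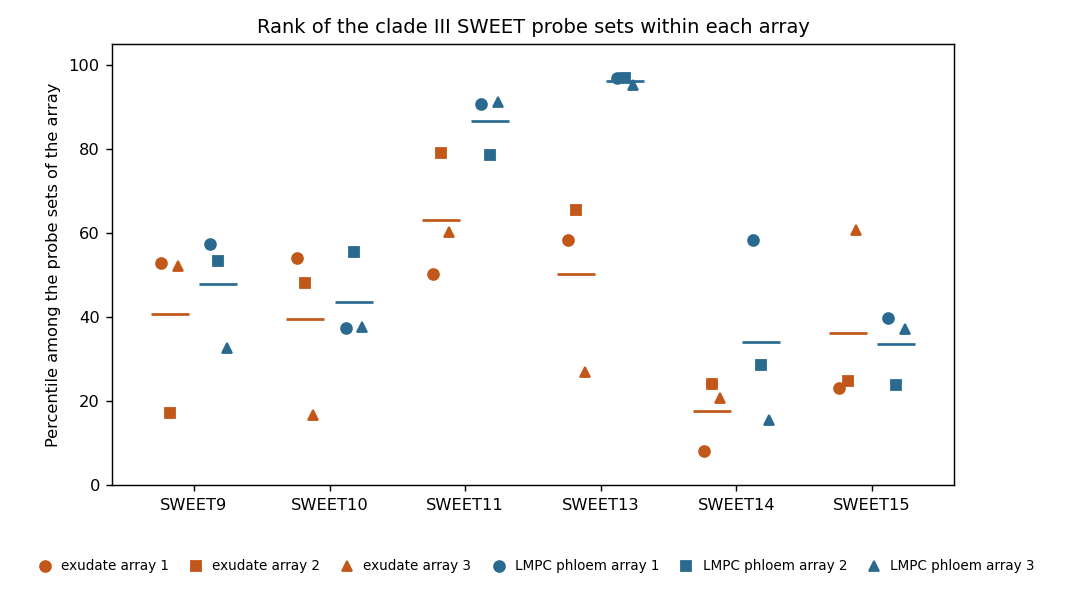
Percentile of each clade III SWEET probe set among the probe sets of its array, for the 3 exudate arrays (orange, left) and the 3 LMPC phloem arrays (blue, right), with group means as lines. SWEET13 lies between 26.9 and 65.5 on exudate arrays and between 95.2 and 96.9 on LMPC arrays, and SWEET11 on exudate array 2 (79.0) reaches LMPC array 2 (78.5).

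Ratios between members within an array are likewise free of its scaling, apart from the pseudocount. The log2 ratio of SWEET11 over SWEET13 was -0.16, 0.41 and 0.75 on exudate arrays 1, 2 and 3, against -1.26, -1.91 and -0.56 on the LMPC arrays. The groups did not overlap and the ratio was higher in exudate by 1.58. SWEET10 over SWEET13 was higher in exudate by 2.45 and SWEET9 over SWEET13 by 2.38, both without overlap. Each of these 3 ratios had p = 0.1 (exact two-sided permutation test), the smallest the design allows, and an adjusted p of 0.2 over the 6 pairs. All 3 share SWEET13 and its dim exudate signals, so they are not separate results. The 3 pairs without SWEET13 overlapped between the groups, with differences of -0.07 to 0.88 and exact p-values of 0.2 to 1.

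**Figure D4:**
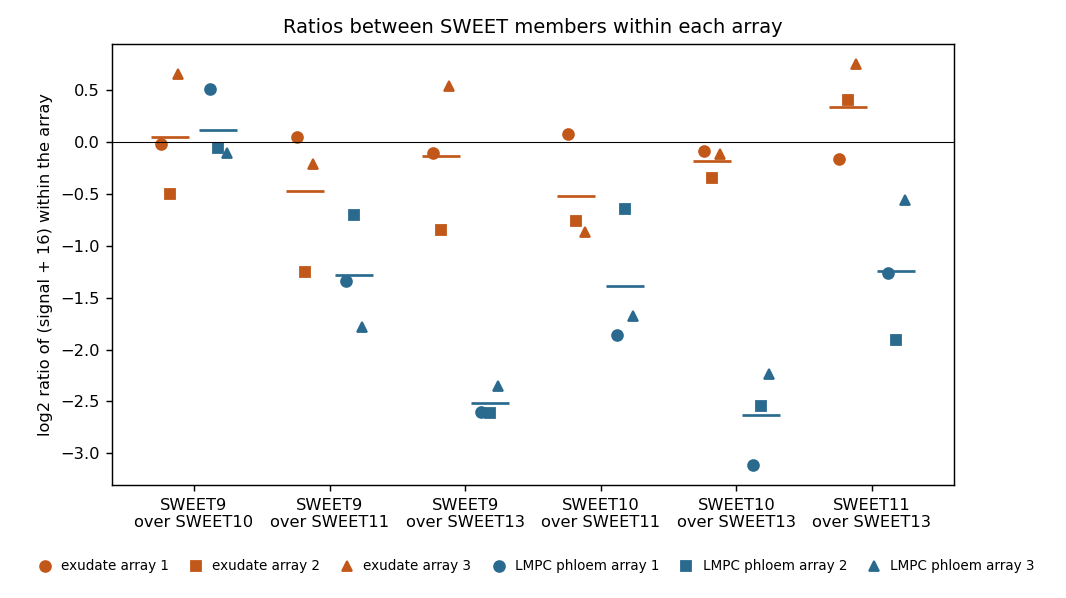
Log2 ratio of (signal + 16) between each pair of tested SWEET members within each array, for the 3 exudate arrays (orange, left) and the 3 LMPC phloem arrays (blue, right), with group means as lines. The 3 ratios over SWEET13 are higher on all exudate arrays than on all LMPC arrays, by 1.58 to 2.45, and the other ratios overlap.

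The scaling of the arrays sets how much of the difference of a member is counted, so both called members were followed through other settings. Over all tested probe sets the median difference was -0.27 as deposited, -0.04 after quantile normalization, 0.02 after median centring and 0.42 after scaling to the 18 hybridization spike-in probe sets. SWEET13 was -2.54 after quantile normalization (limma, adjusted p = 1.49e-06), -2.45 after median centring (4.84e-06) and -1.79 after spike-in scaling (0.000558). It kept its call in all of these settings and with either other pseudocount. SWEET11 was -0.95 after quantile normalization (limma, adjusted p = 0.0307) and lost its call under the other scalings. Relative to the median of all probe sets, SWEET13 stood at -2.50 after quantile normalization and at -2.20 after spike-in scaling, and SWEET11 at -0.91 and -0.68 in the same settings.

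**Figure D5:**
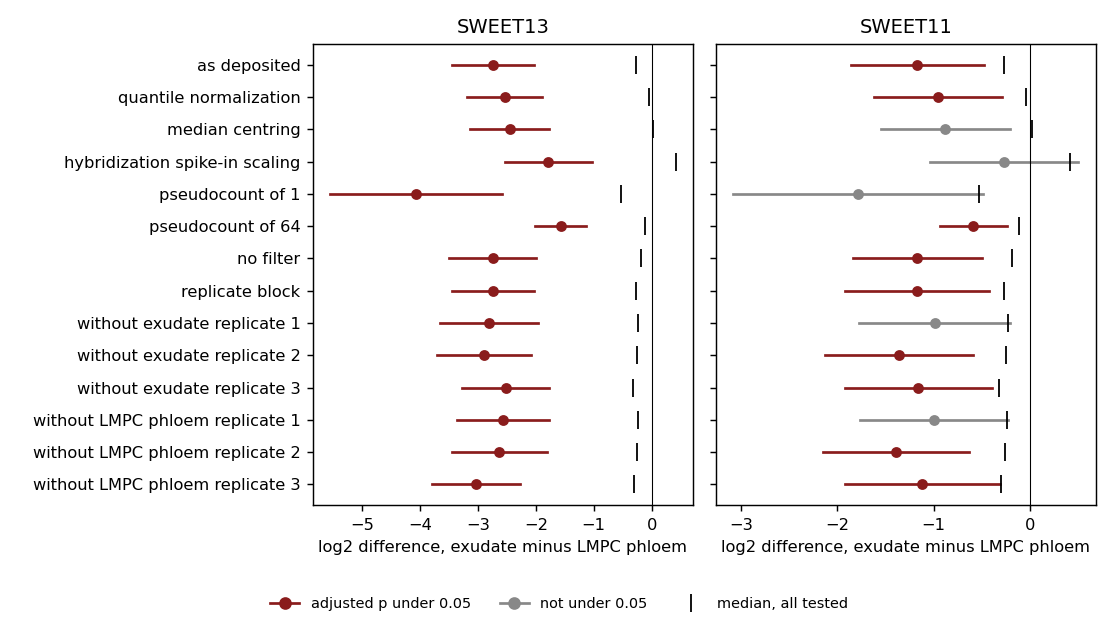
Log2 difference, exudate minus LMPC phloem, of SWEET13 (left) and SWEET11 (right) as deposited and under each other setting, with 95% intervals; red marks an adjusted p under 0.05, grey one that is not, and black ticks give the median of all probe sets tested. SWEET13 is red in every setting drawn, and SWEET11 is grey after median centring, after spike-in scaling, at a pseudocount of 1, and where exudate array 1 or LMPC array 1 is left out.

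Some cell type markers differed between the groups, in both directions. Phloem tissue holds sieve elements, companion cells and parenchyma, and a bulk sample cannot tell fewer cells of a type from less RNA per cell. Of 17 companion cell and sieve element markers 3 had a probe set of their own. CLE41, a phloem peptide gene, was lower in exudate (-2.02, limma adjusted p = 0.0006). CLE44, which encodes the same peptide, was higher (1.01, limma adjusted p = 0.0325), and OPS did not pass the filter. The summed signal of these 3 was 90.3 to 169 in exudate and 176 to 371 in LMPC phloem. Of 16 mesophyll markers the 3 with a probe set of their own, LHCB4.1, LHCB4.2 and RCA, were all called higher in exudate. Among all tested probe sets 8.51% were called higher. The summed signal of the 3 was 924 to 1805 in exudate against 183 to 745 in LMPC phloem. Taken singly, LHCB4.1 and RCA overlapped between the groups. LMPC array 1 read 489 and 96.0 for them, above exudate array 1 with 404 and 92.9. The call of RCA was narrow (1.01, limma adjusted p = 0.0482). The 1 xylem marker of 11, IRX10, was lower (-1.09, limma adjusted p = 0.0156), with 16.0 to 33.5 in exudate and 64.9 to 80.6 in LMPC phloem. Calls of lower signal were made for 16.6% of all tested probe sets. The epidermis marker FAMA, 1 of 7, had 0.900 to 11.6 in exudate and 10.8 to 28.9 in LMPC phloem and was not called. These marker calls were not followed through the other settings. The ratio of 3' to 5' signal of the GAPDH control was 2.15 to 2.47 in exudate and 6.02 to 43.5 in LMPC phloem. That of actin was 8.99 to 18.8 in exudate and 17.6 to 32.8 in LMPC phloem. For the ubiquitin control it was 4.04 to 7.05 in exudate and 5.42 to 8.66 in LMPC phloem. The ranges of actin and ubiquitin overlapped between the groups, and those of GAPDH did not. The part of cell makeup and of RNA quality in the SWEET values was not tested.

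The other SWEET clades carry mainly hexoses, and each of their 10 genes could be read from a probe set of its own. Of 8 tested, 1 was called lower in exudate and 0 higher, where 16.6% of all tested probe sets were called lower and 8.51% higher. Their median log2 difference was -0.14, against -0.27 over all tested probe sets. SWEET1 (AT1G21460), a glucose carrier of the plasma membrane, was the gene called. Its signal was 3.50, 10.8 and 14.7 in exudate, against 59.0, 75.3 and 32.3 in LMPC phloem, with no overlap and a log2 difference of -1.46 (limma, adjusted p = 0.0035). That call was lost after spike-in scaling (-0.67, limma adjusted p = 0.144). SWEET3 came next at -0.75 (limma, adjusted p = 0.0985). SWEET17, a fructose carrier of the vacuole, had 44.1, 27.9 and 79.6 in exudate, against 72.5, 30.7 and 32.4 in LMPC phloem, with overlapping groups and a difference of 0.11. It was not called as deposited, and was called higher after spike-in scaling (1.09, limma adjusted p = 0.0126). SWEET8, known from pollen wall formation, differed by 0.02.

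Genes that act beside the SWEET carriers were described from further lists. None of the 9 SUC sucrose symporters and none of the 11 plasma membrane proton pumps that drive them had a probe set of its own in the probe table, which leaves 8730 probe sets unnamed, so the loading step after sucrose release was not analysed here. Of 34 monosaccharide and polyol transporters 12 had one, and of 9 tested 3 were called lower and 1 higher in exudate, beside 16.6% lower and 8.51% higher among all tested probe sets. The median difference of the 9 was -0.62, against -0.27 over all tested probe sets. SFP2 (AT5G27360), of the ERD6-like sugar carriers, had 1.90, 10.9 and 16.1 in exudate, against 54.7, 48.0 and 58.7 in LMPC phloem, and differed by -1.48 (limma, adjusted p = 0.00212). TMT2 (AT4G35300), which loads sugars into the vacuole in exchange for protons, had 13.7, 18.1 and 2.50 in exudate, against 56.2, 44.5 and 51.8 in LMPC phloem, and differed by -1.33 (0.00531). These exudate and LMPC values did not overlap for either gene, and both calls were lost after spike-in scaling (-0.72 for SFP2 and -0.47 for TMT2). The third lower gene was TMT3 (-1.02), a further vacuolar carrier named here after its value was seen. Its call did not hold under the other scalings, with a pseudocount of 64, or when exudate array 1 or 2 or LMPC array 2 or 3 was left out. In the other direction PMT4 (AT2G20780), of the polyol transporter family, had 16.8, 33.3 and 21.0 in exudate, against 2.58, 1.53 and 7.0 in LMPC phloem, and was higher by 0.999 (limma, adjusted p = 0.0242). Its call ended with a pseudocount of 64 and when exudate array 2, LMPC array 1 or LMPC array 2 was left out. PMT4 passed the filter through its 3 exudate arrays alone, with 0 LMPC arrays above the 40th percentile. Without the filter it stayed called (limma, adjusted p = 0.0281). STP3, a hexose and proton symporter, differed by 0.85 and was not called as deposited (limma, adjusted p = 0.0574). It was called higher after quantile normalization (1.04, limma adjusted p = 0.00997), median centring (1.14, 0.00838) and spike-in scaling (1.58, 0.00058).

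Sucrose cleavage was seen through VI1 (AT1G62660), a vacuolar invertase that splits sucrose. Its signal was 64.1, 10.7 and 81.2 in exudate, against 3.91, 1.78 and 1.44 in LMPC phloem. All exudate arrays were higher, though array 2 much less so than the others, and the log2 difference was 1.69 (limma, adjusted p = 0.00438). A pseudocount of 64 ended this call, as did testing without the filter (limma, adjusted p = 0.0523). VI1 passed the filter through its 3 exudate arrays alone, with 0 LMPC arrays above the 40th percentile. Its LMPC signals lay within the range of the trp probe sets over the LMPC arrays (0.996 to 7.35). CWINV6, of the cell wall invertase family, differed by -0.03 and was not called. Of the 20 genes of sucrose synthesis and cleavage 3 had a probe set of their own. Of the 2 tested 1 was called higher, beside 8.51% of all tested probe sets.

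Lists linked to single members held few measured genes. FD (AT4G35900), the transcription factor partner of the flowering signal FT, was the 1 gene of 4 in the flowering list of SWEET10, with 9.20, 1.3 and 1.5 in exudate, against 13.9, 28.3 and 28.9 in LMPC phloem. Its groups did not overlap, and it was lower by -0.99 (limma, adjusted p = 0.0293). That call did not hold under any of the other scalings or with a pseudocount of 64, nor when exudate array 2 or 3, or LMPC array 2 or 3, was left out. SAG101, a lipase-like gene of senescence and defence, was the 1 of 8 senescence genes measured beside SWEET15, and differed by 0.67 (limma, adjusted p = 0.142). It was called higher after quantile normalization (0.86, limma adjusted p = 0.0376), median centring (0.96, 0.0305) and spike-in scaling (1.25, 0.00456). Of 10 gibberellin genes, set beside SWEET13 and SWEET14, 3 of 4 with a probe set were tested and 0 called as deposited. They were the importer gene NPF3.1 (-0.92) and the receptor genes GID1A (0.66) and GID1B (0.13). GID1A was called higher after quantile normalization (0.84, limma adjusted p = 0.0496), median centring (0.95, 0.0354) and spike-in scaling (1.18, 0.00728), and NPF3.1 was called lower without LMPC array 3 (-1.15, 0.0448). Over the 8 lists, 31 of 107 genes had a probe set of their own, and of 24 tested 5 were called lower and 2 higher in exudate, beside 16.6% lower and 8.51% higher among all tested probe sets. The 2 higher genes, PMT4 and VI1, had passed the filter through their exudate arrays alone.

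The genes with the array profile nearest to each member were taken from 1131 tested genes with a symbol. Nearness was the root mean square difference of log2(signal + 16), centred on each gene's mean, over the 6 arrays. Nearest to SWEET13 was SIM, an inhibitor of cyclin-dependent kinases, at 0.351. SIM had 12.4, 7.40 and 14.8 in exudate, against 225, 179 and 128 in LMPC phloem. It was followed by bZIP44, a transcription factor gene (0.400), and the cytochrome P450 gene CYP78A9 (0.433), with log2 differences of -3.19 and -2.37. bZIP44 had 0.3, 3.9 and 1.4 in exudate, under the 40th percentile of each exudate array, and passed the filter through its LMPC arrays alone. All 3 had low exudate and high LMPC signals on every array, as SWEET13 did, which follows from how they were chosen. Nearest to SWEET11 were AGL82, of the MADS-box family (0.185), OTP70, of the plastid pentatricopeptide repeat proteins (0.192), and NdhN, a subunit of the plastid NDH complex (0.192), with differences of -0.89, -1.08 and -1.34. The nearest genes of SWEET9 were VHA-A3, TRM25 and YUC2, at 0.0763 to 0.121, and those of SWEET10 were YUC4, MRL7-L and PYK10, at 0.146 to 0.150. Signals of SWEET9 and SWEET10 were mostly under the pseudocount of 16, which compresses their profiles. Their smaller distances therefore do not mean a closer likeness than that of SIM to SWEET13.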

How the data were processed

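The authors deposited intensity values on a linear scale, 1 for each probe set of an ATH1 array. Per the submitters' processing notes MAS5 was used. All values of each exudate array have at most 1 decimal, against at most 0.00438% of the values of an LMPC array, so the deposited intensities of both groups were rounded differently. The MAS5 version, its scaling target and the build are not given in the sources. Per the labels' protocols, poly-A RNA was captured on oligo-dT beads. Groups came from the sample titles. The extract protocol names exudate for the LMPC samples too and was not used for grouping.

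The table held 22810 probe sets, 64 of them controls. The probe table (GEO's platform annotation) paired 13513 with 1 gene, 503 with several and 8730 with none named here, and 13436 of those with 1 gene were found in TAIR10.1 by gene identifier. A list gene with several probe sets was read from the one with the highest mean. A probe set was tested where it was above the 40th percentile of the array on at least 3 of the 6 arrays (15320 tested). limma 3.58.1 (lmFit and eBayes, R 4.3.3) used log2(signal + 16) of the values as deposited, without covariates, with Benjamini-Hochberg adjustment over all tested probe sets and calls under 0.05. The fit was checked on simulated data. Percentiles and ratios within an array had exact two-sided permutation tests, and 3 arrays per group limit their precision. The members, lists and settings were chosen with earlier results of these data known. Named genes were the members, all tested genes of lists with up to 5, otherwise the 2 with the smallest adjusted p in each direction, and the 3 nearest profiles of each tested member.

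Replicate numbers in both groups did not pair the samples: deviations from the group means of same-numbered arrays correlated at -0.00437, -0.0162 and -0.0740. Settings tried were quantile normalization, median centring, spike-in scaling, pseudocounts of 1 and 64, no filter, a replicate block and leaving out each array. Sequences were not used here.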

Additional observations from a re-analysis of the deposited data

How the results depend on the processing

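SWEET13 kept its direction and its call in every setting tried, at -4.07 with a pseudocount of 1, -1.58 with a pseudocount of 64 and between -3.04 and -2.52 without 1 array. SWEET11 kept its direction but not its call after median centring (-0.88), spike-in scaling (-0.27) and with a pseudocount of 1 (-1.79), and it ranged from -1.39 to -0.99 without 1 array, with the call lost without exudate array 1 or LMPC array 1. The members called lower were accordingly 1 in place of 2 in each of these settings, and 1 or 2 without 1 array. SWEET9 and SWEET10 were called in no setting: spike-in scaling turned them to 0.10 and 0.23, a pseudocount of 1 gave -1.01 and -0.94, and without 1 array SWEET9 ranged from -0.57 to -0.16 and SWEET10 from -0.41 to -0.11. Without 1 array the ratio of SWEET9 over SWEET10 ranged from -0.37 to 0.20, and the percentile difference from -14.6 to 4.63 for SWEET9, from -11.2 to 7.48 for SWEET10 from -9.60 to 9.16 for SWEET15 and from -25.7 (without LMPC array 3) to -4.26 (without LMPC array 1) for SWEET14. Over the 8 lists, against 2 higher and 5 lower as deposited, there were 5 higher and 3 lower both after quantile normalization and after median centring, 7 higher and 0 lower after spike-in scaling, 0 higher and 3 lower with a pseudocount of 64, and 1 higher without the filter. Without 1 array there were 1 to 2 higher and 3 to 5 lower, with 1 higher and 3 lower without exudate array 2 or LMPC array 2, and 1 higher without LMPC array 1. The replicate block left SWEET13 at -2.75 and SWEET11 at -1.17, both called, and moved the calls over all probe sets to 1220 higher and 2207 lower, against 1303 and 2550. All probe sets gave 1989 higher and 1900 lower calls after quantile normalization, 2143 and 1458 after median centring, 4349 and 564 after spike-in scaling, 951 and 1979 with a pseudocount of 1 and 949 and 1928 with one of 64, and without 1 array between 907 and 1216 higher and between 1521 and 2469 lower. The causes were not tested. The signals of SWEET9, SWEET10, SWEET14 and SWEET15 were near those of the trp controls on some arrays, which limits their precision. The same holds for SWEET13 on exudate array 3, at 2.70.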
